A study of Bos taurus with 8 samples.

Results

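The miR-200 family is a set of 5 microRNAs (miRNAs), listed on the array as bta-miR-200a, bta-miR-200b, bta-miR-200c, bta-miR-141 and bta-miR-429, which were chosen by name from the 763 bovine miRNAs on a one-colour Agilent array. All 5 were found in the scanner files and in the deposited value table, and no other arm or older entry of the family was on the array. The tissue was mammary gland of 8 healthy, non-pregnant heifers, and each animal had its own array. The groups were 4 Holstein-Friesian heifers, a dairy breed, and 4 Limousin heifers, a beef breed. The labels give both breeds the same age, as 20 months in one field and 2 years in another, and name no treatment or altered gene. Each sample was a piece of whole gland, so it held epithelium, stroma, vessels and blood cells in unknown shares. The question is whether members of the family differ between a dairy and a beef breed in the gland of a heifer, and differences are given as Limousin minus Holstein-Friesian.

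Members of the miR-200 family are made by epithelial cells and are known for repressing the transcription factors ZEB1 and ZEB2, which shut off E-cadherin and other epithelial genes. The ZEB factors repress the family in turn, so that the balance between them holds a cell in an epithelial or a mesenchymal state. The family falls into a pair of seed groups that differ by a single base in the stretch that recognises targets, with miR-200a and miR-141 in one and miR-200b, miR-200c and miR-429 in the other. In mice miR-200c is also known for restraining mammary stem cells through BMI1.

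The family comes from a pair of genomic clusters. In the array annotation, on the UMD 3.1 build, miR-200b lies at chr16:52522034-52522049, miR-200a at chr16:52521381-52521397 and miR-429 at chr16:52520145-52520161, so that the 3 probes span 1905 bases. The second cluster has miR-200c at chr5:103859485-103859498 and miR-141 at chr5:103859068-103859083, with 417 bases between the probe starts. These are the positions of the probes, each 1 base shorter than the probe itself. In the RefSeq gene table of the ARS-UCD2.0 build all 5 are genes of the miRNA class, on the same chromosomes. The genes MIR429, MIR200A and MIR200B follow each other with no overlapping gene, between TTLL10 and C16H1orf159, while MIR141 and MIR200C both overlap LOC112446758. Whether that overlap is exonic or intronic was not analysed here.

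The probes are shown because their shared letters bear on how far the members can be told apart. Each probe is the DNA strand that pairs with the miRNA, written 5′ to 3′, and the capitals mark the longest stretch that all 5 share.
miR-200b: catcaTTACCaggcagt
miR-200a: aacatcgTTACCagacag
miR-429: acggcaTTACCagacagt
miR-200c: tccatcaTTACCcgg
miR-141: ccatctTTACCagacag
The stretch TTACC was held by all 10 probes of the family and by 18 of the 1657 miRNA probes on the array, or 1.09%. A longer run of 11 bases, TTACCAGACAG, is shared by the probes shown for miR-200a, miR-429 and miR-141. It was found in 4 probes of the array, all from these 3 miRNAs. The probes of miR-200b and miR-200c lack it.

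Every spot of all 10 family probes was well above background on all 8 arrays, and none was saturated. Per array and probe 27 to 30 spots remained after flagged spots were left out, and their coefficient of variation ran from 2.45% to 9.13%. Arrays differed in brightness. The 75th percentile of the signal over probes detected on all arrays ran from 557 to 939 in Holstein-Friesian and from 943 to 1579 in Limousin, 1.81-fold higher on geometric mean. Signals were therefore divided by that percentile and are given as scaled log2 values. All 8 arrays lay on 1 slide, with each breed in a row of its own, so that breed and place on the slide cannot be told apart. The second Holstein-Friesian replicate stood apart from the rest of its breed. It had the fewest miRNAs above background, 243 against 254 to 297 on the other arrays, and its correlation with the other Holstein-Friesian arrays across 270 miRNAs was 0.969 to 0.982, where those arrays reached 0.989 to 0.991 among themselves.

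No member of the miR-200 family passed the test for a difference between the breeds. Of the 270 miRNAs tested, which were above background on every array of one breed or both, 113 differed (41.9%), with 37 higher (13.7%) and 76 lower (28.1%) in Limousin, against 0 of the 5 members in either direction (limma, Benjamini-Hochberg adjusted p under 0.05 over all 270). The unadjusted p was also above 0.05 for all 5. The median difference was -0.04 over the members and -0.07 over all 270, on the log2 scale. The median size of the difference, regardless of direction, was 0.17 over the members and 0.33 over all tested miRNAs. In whole tissue fewer cells of a type and less RNA per cell cannot be told apart, and this holds for every value given here. The call depends on the scaling, since all 5 members passed as higher in Limousin when arrays were not scaled, as described further on.

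**Figure D1:**
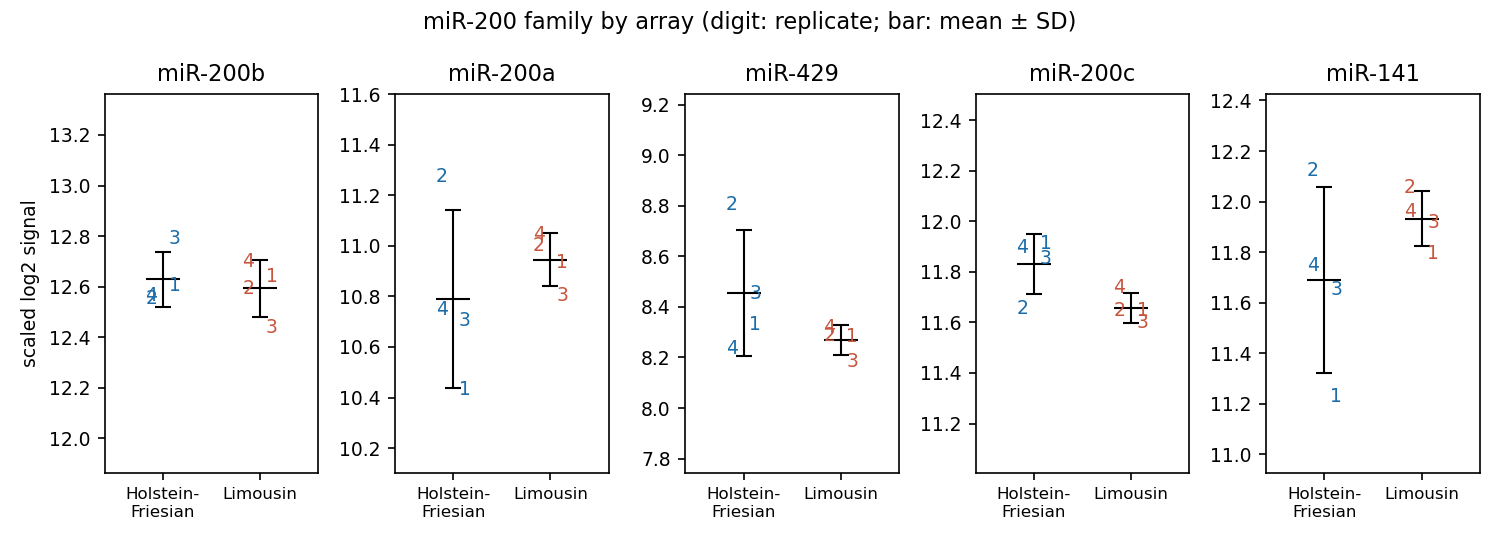
Scaled log2 signal of each miR-200 family member (vertical axes, each spanning 1.5 log2 units) in the 2 breeds, with digits for the replicate numbers and bars for the mean ± SD of 4 arrays. Both breeds overlap for all 5 members, and miR-200a, miR-141, miR-429 and miR-200c spread more widely in Holstein-Friesian than in Limousin.

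The first cluster is headed by miR-200b, a member of the seed group best known for repressing ZEB1 and ZEB2. Its scaled log2 signals were 12.61, 12.55, 12.79 and 12.57 in Holstein-Friesian replicates 1 to 4 and 12.64, 12.59, 12.44 and 12.70 in Limousin. The highest and the lowest array thus belonged to different breeds and 6 arrays lay between them. The means were 12.63 ± 0.11 (SD, n = 4) and 12.59 ± 0.11 (SD, n = 4), a log2 difference of -0.04 (SE 0.11; limma adjusted p = 0.828). The fold of Limousin over Holstein-Friesian was 0.976, with a 95% confidence interval of 0.822 to 1.16. Its shorter probe gave a difference of -0.00078 (SE 0.11; limma adjusted p = 0.995 over 495 tested probes).

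Its neighbour miR-200a belongs to the other seed group. It was measured at 10.43, 11.27, 10.70 and 10.75 in the Holstein-Friesian animals and at 10.93, 11.00, 10.80 and 11.05 in the Limousin animals. The lowest and the highest array were both Holstein-Friesian, replicates 1 and 2, and the Limousin arrays lay between them. The means were 10.79 ± 0.35 (SD, n = 4) and 10.95 ± 0.11 (SD, n = 4), a log2 difference of 0.16 (SE 0.17; limma adjusted p = 0.497) or 1.11-fold, with an interval of 0.859 to 1.45. The shorter probe differed by 0.08 in the same direction (SE 0.17).

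The third member of this cluster, miR-429, shares its seed with miR-200b and miR-200c. Its signals were 8.33, 8.81, 8.45 and 8.24 in Holstein-Friesian and 8.28, 8.29, 8.18 and 8.32 in Limousin. The second Holstein-Friesian replicate was the highest array, and all other arrays, of both breeds, lay below the middle of the range. The means of 8.46 ± 0.25 (SD, n = 4) and 8.27 ± 0.06 (SD, n = 4) differed by -0.19 (SE 0.14; limma adjusted p = 0.305), or 0.878-fold with an interval of 0.713 to 1.08. Its longer probe, with a difference of -0.23 (SE 0.14), went the same way.

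The second cluster pairs miR-200c with miR-141. For miR-200c the Holstein-Friesian signals were 11.91, 11.66, 11.85 and 11.90 and the Limousin signals 11.65, 11.65, 11.60 and 11.74. The breeds met only through the second Holstein-Friesian replicate, which lay among the Limousin arrays. The means were 11.83 ± 0.12 (SD, n = 4) and 11.66 ± 0.06 (SD, n = 4), and the log2 difference of -0.17 (SE 0.11; limma adjusted p = 0.226) corresponds to 0.887-fold, with an interval of 0.753 to 1.05. Its shorter probe, of 14 bases, had a difference of -0.30 (SE 0.11) and missed the threshold when probes were tested (limma adjusted p = 0.054 over 495 probes, of which 199, or 40.2%, were called). It passed, as lower in Limousin, when each miRNA was taken from its second brightest probe (limma adjusted p = 0.040), where 34.4% of the 270 miRNAs were called and 21.9% were called lower. It was also the 1 member called, as lower, under quantile normalization (-0.25; 36.3% called, 15.9% lower), cyclic loess (-0.32; 38.5% called, 21.9% lower) and array weights (-0.23; 56.7% called, 36.3% lower). The direction of miR-200c turned to 0.15 after a correction of each array for the GC content and length of the probes (limma adjusted p = 0.205), where no member passed and 29.3% of all tested miRNAs did. The slope of log2 signal on probe length differed in sign between the breeds. Per base it ran from -0.076 to -0.038 on the Holstein-Friesian arrays and from 0.013 to 0.093 on the Limousin arrays. The main probe of miR-200c, of 15 bases, was the shortest of those shown. The part of probe length in the breed differences was not tested.

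For miR-141, the partner of miR-200c in the genome and of miR-200a in its seed, the signals were 11.23, 12.12, 11.65 and 11.75 in Holstein-Friesian and 11.80, 12.06, 11.92 and 11.96 in Limousin. As for miR-200a, the first and second Holstein-Friesian replicates were the lowest and the highest of the 8 arrays. The means were 11.69 ± 0.37 (SD, n = 4) and 11.93 ± 0.11 (SD, n = 4), and the difference of 0.24 (SE 0.17; limma adjusted p = 0.300) was the largest in the family. It corresponds to 1.18-fold, with an interval of 0.905 to 1.55, and the shorter probe gave 0.16 (SE 0.19). Of the 270 tested miRNAs, 110 had a smaller difference than miR-141, regardless of direction.

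Tested singly with a two-sided exact permutation test, whose smallest p with 4 arrays against 4 is 0.0286, the members gave p = 0.657 for miR-200b, 0.400 for miR-200a, 0.200 for miR-429, 0.0571 for miR-200c and 0.286 for miR-141. The breeds overlapped for all 5, whereas they did not overlap for 99 of the 270 tested miRNAs (36.7%). In the main scaling the 95% intervals of the members reached from 0.713-fold to 1.55-fold. True differences of these sizes are compatible with the measurements so scaled. The intervals do not cover the choice of scaling, which moved the members further, as described below. The smallest difference called among all tested miRNAs was 0.32 on the log2 scale.

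**Figure D2:**
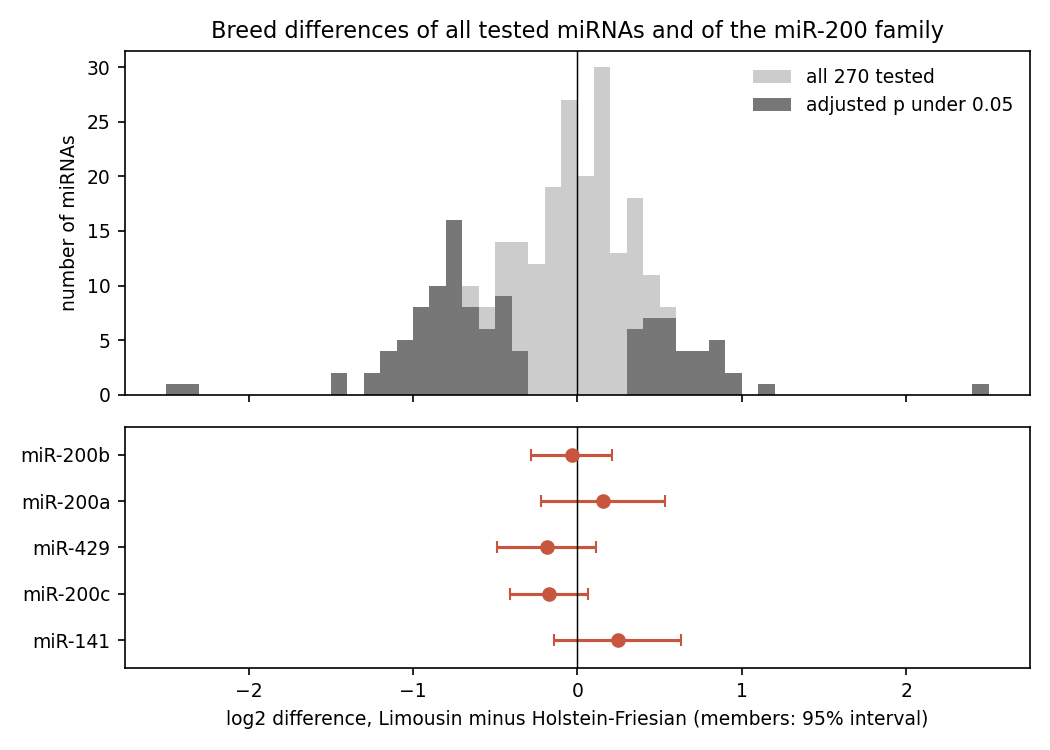
Top, number of miRNAs (vertical axis) by log2 difference of Limousin minus Holstein-Friesian (horizontal axis) for all 270 tested miRNAs, with those past the threshold in dark grey. Bottom, the 5 members with 95% confidence intervals, all of which include 0.

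Without the second Holstein-Friesian replicate the 2 members of one seed group passed. The difference of miR-141 was then 0.39 (limma adjusted p = 0.036) and that of miR-200a 0.32 (limma adjusted p = 0.042), both higher in Limousin, while 152 of 276 tested miRNAs were called (55.1%), 57 of them higher (20.7%). The others did not pass. Their differences were -0.06 for miR-200b, -0.23 for miR-200c and -0.07 for miR-429, where miR-429 had been at -0.19 with all arrays. Leaving out any of the other 7 arrays gave no call among the members. In the second Holstein-Friesian replicate miR-141 and miR-200a were 1.86-fold and 1.79-fold higher than in the first, and miR-429 was 1.39-fold higher. In the same pair of animals miR-200b was at 0.964-fold and miR-200c at 0.837-fold. Beside these values stands miR-451, a marker of red blood cells and the 1 detected member of 3 on the erythroid list: it was at 7.07 in that replicate and between 4.85 and 5.65 in the other 7. The other erythroid markers, miR-144 and miR-486, were above background on no array. The part of blood or of this array's quality in the family's values was not tested.

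The spread within a breed differed among members. The SD among Holstein-Friesian arrays was 0.37 for miR-141, 0.35 for miR-200a and 0.25 for miR-429, against a median of 0.26 over all tested miRNAs. For miR-200b and miR-200c it was 0.11 and 0.12. Among Limousin arrays all 5 lay between 0.06 and 0.11, below the median of 0.15 over all tested miRNAs. The ratio of the SDs, Holstein-Friesian over Limousin, was 4.23 for miR-429, 3.38 for miR-141, 3.31 for miR-200a and 2.00 for miR-200c, but 0.980 for miR-200b. The median over all tested miRNAs was 1.57. Without the second Holstein-Friesian replicate the ratios were 2.53 for miR-141, 1.83 for miR-429, 1.61 for miR-200a, 1.07 for miR-200b and 0.513 for miR-200c, and the median over all tested miRNAs was 1.0997. These SDs rest on 4 arrays or fewer and were not tested against each other.

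**Figure D3:**
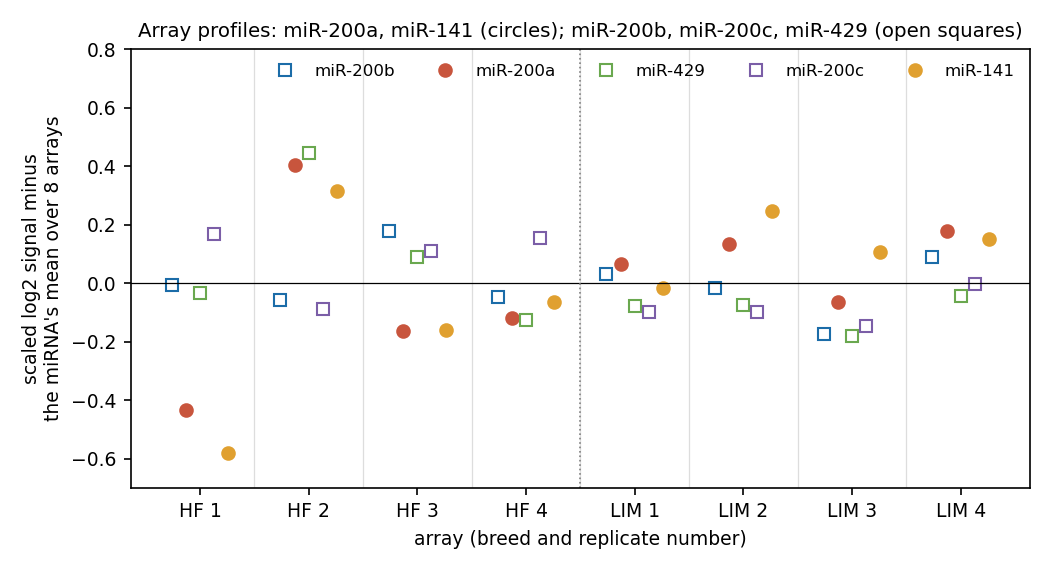
Scaled log2 signal of each member minus its own mean over the 8 arrays (vertical axis), by array (horizontal axis, HF for Holstein-Friesian and LIM for Limousin, with replicate numbers). The values of miR-200a and miR-141 lie lowest in HF 1, at -0.44 and -0.58, and highest in HF 2, at 0.41 and 0.31, while miR-200b and miR-200c stay within 0.18 of their means.

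Differences between a pair of members within the same array do not change when each array is scaled by a constant, as in the main setting. Quantile normalization, cyclic loess and the GC and length correction can change them. For the 10 pairs, the root mean square difference between profiles, each centred on its own mean over the 8 arrays, ran from 0.10 to 0.36 on the log2 scale. The closest pair was miR-200a with miR-141, at 0.10, which lie on different chromosomes and share a seed. Next came miR-200b with miR-200c, at 0.12, again from different chromosomes and with one seed, and miR-200b with miR-429, at 0.19, from one cluster and with one seed. The most distant pair, at 0.36, was miR-200c with miR-141, the genomic neighbours on chromosome 5. Over the 4 pairs with a shared seed the median was 0.15, and over the 6 others it was 0.29. Over the 4 pairs from one cluster it was 0.24, and over the 6 from different clusters 0.25. The seed grouping was applied after the values had been seen, and pairs that share a member are not independent. The order of the pairs changed when each array was corrected for the GC content and length of the probes, an alternative added after the values had been seen. Then miR-200b with miR-200c was the closest pair, at 0.07, before miR-200a with miR-141 at 0.13. The most distant pair was miR-429 with miR-141, at 0.32, and miR-200c with miR-141 came to 0.28. The medians were then 0.18 over pairs with a shared seed and 0.26 over the others.

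The letters shared by the probes partly follow the same order. The longest common stretch was 11 bases for miR-200a with miR-141 and 10 bases for miR-200b with miR-200c, but it was also 11 bases for miR-429 with miR-141, at a distance of 0.28, and with miR-200a, at 0.21. It was 5 bases for miR-200c with miR-141 and with miR-200a, the latter at 0.33. Whether a miRNA bound to the probe of a relative was not tested. Without the second Holstein-Friesian replicate miR-200b and miR-429, from the same cluster, came as close as 0.042, while miR-200a with miR-141 stayed at 0.10 and miR-200c with miR-141 at 0.35.

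**Figure D4:**
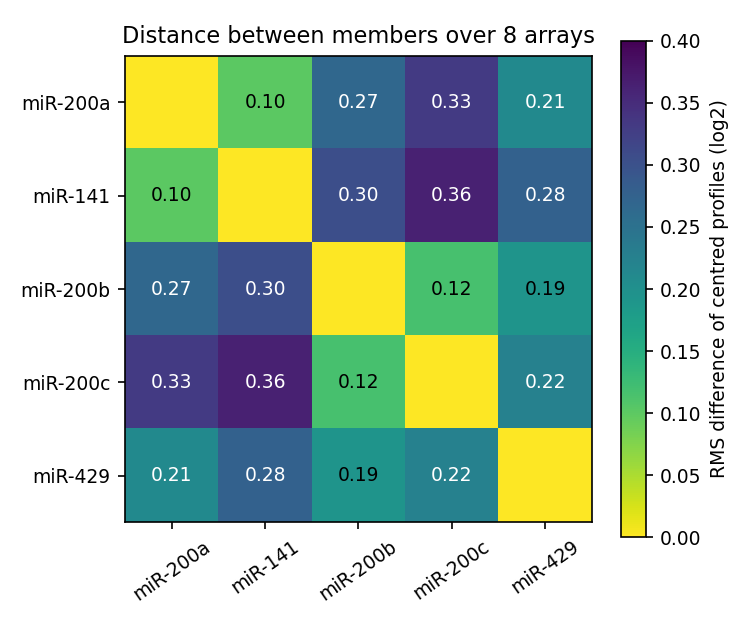
Root mean square difference of centred profiles over the 8 arrays (colour and printed value, log2 units) for each pair of members (both axes). The smallest distances are 0.10 for miR-200a with miR-141 and 0.12 for miR-200b with miR-200c, and the largest is 0.36 for miR-200c with miR-141, an order that changes once GC content and length of the probes are corrected for.

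The breed difference itself was compared between members for all 10 pairs, with two-sided exact permutation tests on within-array differences. None passed after Benjamini-Hochberg adjustment over the pairs, which says little, because at least 6 pairs would have to reach the smallest possible p for any to pass. The smallest p, 0.0286 and thus the smallest possible, was that of miR-200a against miR-429, neighbours on chromosome 16, whose within-array difference was 0.34 higher in Limousin (exact permutation test, adjusted p = 0.286), with no overlap between the breeds. The mean within-array difference was 2.33 ± 0.19 (SD, n = 4) in the dairy animals and 2.68 ± 0.05 (SD, n = 4) in the beef animals, which compares only how the ratio of these 2 probes moved and not their levels. For miR-429 against miR-141 the shift was -0.43 (exact permutation p = 0.0571, adjusted p = 0.286) and for miR-200c against miR-141 it was -0.42 (exact permutation p = 0.143, adjusted p = 0.286).

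The scaling of the arrays set where the whole family lay relative to 0. Without scaling, the difference was 1.098 for miR-141, 1.01 for miR-200a, 0.82 for miR-200b, 0.68 for miR-200c and 0.67 for miR-429, and all 5 passed (limma adjusted p from 0.00098 to 0.036). In that setting 173 of 270 miRNAs were higher (64.1%) and 2 lower in Limousin, 64.8% in all, and the median over all 270 was 0.78, beside 0.82 over the members. Scaled to the synthetic control RNAs, the members lay between 0.60 and 1.04 around a median of 0.72 over all tested miRNAs, all 5 passed, and 173 were higher (64.1%) and 3 lower, 65.2% in all. With the 75th percentile over all probes 2 members passed, miR-141 at 0.57 and miR-200a at 0.49, with a median of 0.26 over all tested miRNAs, of which 104 were higher (38.5%) and 30 lower, 49.6% in all. In the authors' deposited value table, which is scaled by a constant per array, no member passed. The differences there were 0.50 for miR-141, 0.42 for miR-200a, 0.25 for miR-200b, 0.08 for miR-200c and 0.07 for miR-429, with a median of 0.25 over the same 270 miRNAs, of which 81 were higher and 28 lower, 40.4% in all. Omitting the scaling, the spike-in controls and the percentile over all probes change only a constant per array, so the distance of a member from the median of all tested miRNAs is the same in each by construction. That distance changed with the handling of background. With normexp background correction the median was -0.38 over all tested miRNAs and 0.011 over the members. Without background correction these medians were -0.36 and 0.0040. No member passed in either, beside 26 higher and 146 lower calls over all with normexp, and 27 and 143 without correction.

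**Figure D5:**
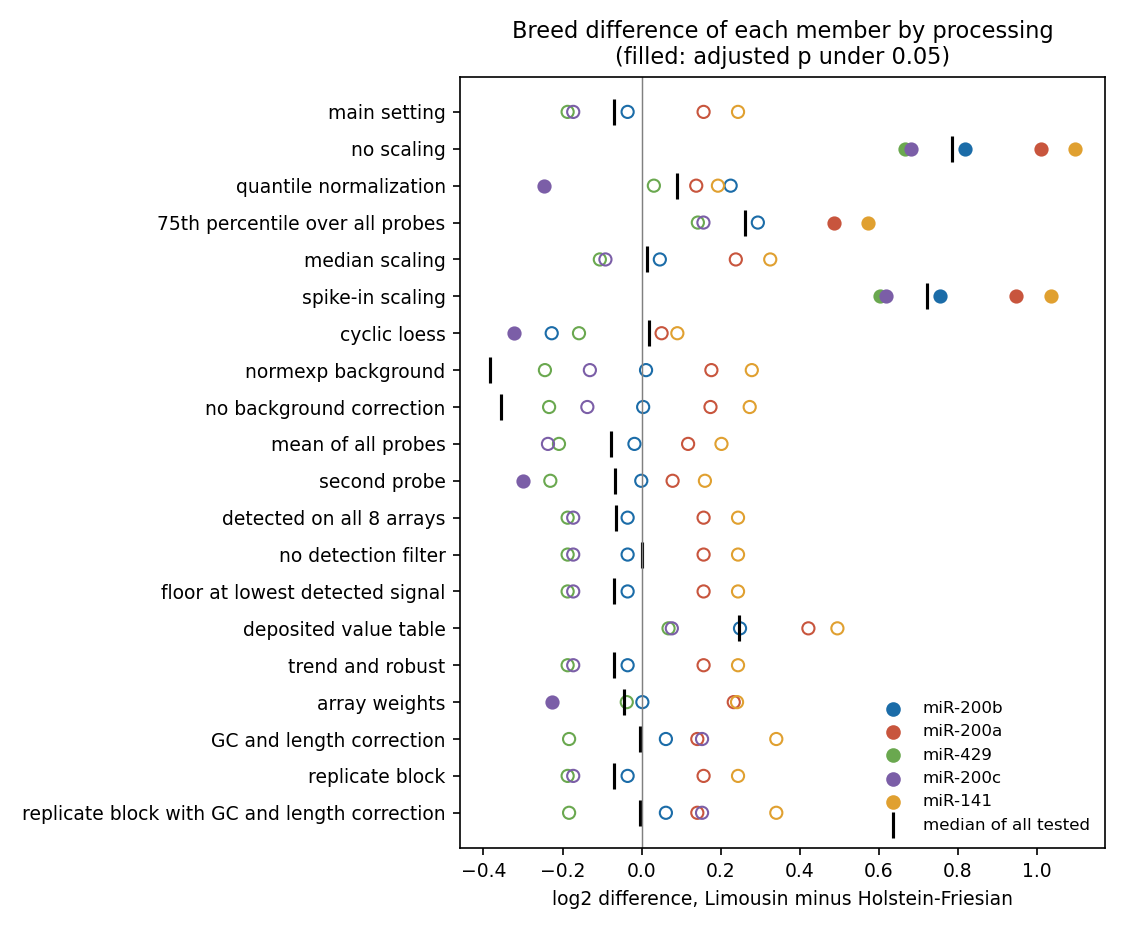
Log2 difference of Limousin minus Holstein-Friesian (horizontal axis) for the 5 members under each processing setting (vertical axis), with filled points for adjusted p under 0.05 and black bars for the median of all tested miRNAs. Without scaling the members lie between 0.67 and 1.098 around a median of 0.78, and in the main setting between -0.19 and 0.24 around -0.07.

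Other epithelial miRNAs were read beside the family from a list of 8 that were on the array. Of the 6 tested, 1 was called higher in Limousin (16.7%, beside 13.7% of all tested miRNAs) and none lower, and their median difference was 0.22. The one called was miR-375, known from endocrine and secretory epithelia, with means of 4.27 and 3.59 (limma adjusted p = 0.0066). It was above background on all 4 Limousin and on 0 Holstein-Friesian arrays and so was tested only through the breed where it was higher, and its call is not counted as support for a difference in the list. No fold is given for it, since the lowest detectable signal in Holstein-Friesian lay above the Limousin mean. For miR-205, which represses ZEB1 and ZEB2 together with the miR-200 family and marks basal mammary cells, the difference was 0.22 (SE 0.14; limma adjusted p = 0.247), with a mean of 11.69 ± 0.23 (SD, n = 4) in the dairy animals and 11.91 ± 0.15 (SD, n = 4) in the beef animals. The relatives miR-96 and miR-182, from one cluster in mammals, were at 0.32 and 0.09 (limma adjusted p = 0.111 and 0.617), miR-31 was at 0.22 and miR-224 at 0.04. The list's miR-183 and miR-184 were above background on no array.

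Markers of other cell types were read in the same way, with the shares called set next to those of all tested miRNAs. Of 10 tested stromal and smooth muscle miRNAs 4 were higher in Limousin and none lower, with a median of 0.10. Over all tested miRNAs 13.7% were higher, 28.1% lower and 41.9% called in either direction. In this list 40.0% were called, near the share over all, but every call was higher. The share of higher calls was thus 40.0% in the list, beside 13.7% over all. The 4 are entries of the miR-199 group, of fibroblasts and other mesenchymal cells, with differences between 0.36 for miR-199a-5p and 0.59 for miR-199b. As relatives, and in one case arms of the same hairpin, they are not 4 independent measurements. For miR-143 and miR-145, of contractile cells, the differences were -0.06 and -0.23 (limma adjusted p = 0.640 and 0.0913). Also not called were miR-214 at 0.0048, miR-10b at -0.10, miR-127 at 0.10 and miR-28 at 0.11. Of 6 tested leukocyte miRNAs 3 were called higher, miR-155 by 0.95, miR-146b by 0.94 and miR-142-5p by 0.56, and none was called lower. That is a share of 50% called, all of them higher, beside 41.9% called and 13.7% called higher over all. Those not called were miR-150 at 0.02, miR-342 at -0.13 and miR-223 at -0.15. The leukocyte list's miR-142-3p and miR-146a were above background on no array. The endothelial miR-126 had both arms tested and neither called, the erythroid and skeletal muscle lists had 1 tested member each and no call, and in the adipocyte list 1 of 6 was higher, miR-204 by 2.40, and 2 were lower, miR-193a-5p and miR-365-3p, again 50% called. The part of cell makeup in the family's values was not tested.

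The miRNAs most like the family were sought by the root mean square difference between centred profiles and the mean of the 5 members over the 8 arrays. Among 227 other miRNAs detected on every array the median was 0.27. The 4 closest were miR-103 at 0.052, miR-151-5p at 0.078, miR-182 at 0.083 and miR-22-5p at 0.085. None of these 4 passed the breed test, with differences from -0.0054 for miR-103 to 0.09 for miR-182. One of them, miR-182, was on the epithelial list, and miR-103 on the adipocyte list. The family mean itself moved by only 0.38 between its lowest and highest array, the first and second Holstein-Friesian replicates, so that any miRNA with a small spread over the arrays also lies near it. Members departed from this mean in different directions. In the first Holstein-Friesian replicate miR-141 was at -0.58 and miR-200c at 0.17, where the mean was at -0.18. Likeness to the mean is thus not likeness to each member.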

How the data were processed

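Each animal's total RNA, 100 ng per the labels' protocols, was put on 1 array with a Cyanine 3 dye. Spot intensity was taken as the authors deposited it, background-subtracted by Agilent's software (Feature Extraction 10.10.1.1, per the file headers) and not normalized between arrays. The deposited value table holds log2 values, equal to the log2 of the total signal per miRNA minus a constant per array, to within 9.7e-06, as read from the values. Here control and flagged spots were left out, spots were averaged per probe, and signals were divided by the 75th percentile over probes detected on all 8 arrays, multiplied by its mean, set to at least 1 and put on the log2 scale. A probe was detected where over 50% of its spots were well above background, and a miRNA was taken from its brightest probe. For the 270 miRNAs with detection on every array of one breed or both, breed was the single term of a limma fit (limma 3.58.1, R 4.3.3), with Benjamini-Hochberg adjustment over all 270. No member was dropped by this filter. Members and lists were chosen with earlier results of these data known. The rule allowed naming all 5 members, the 4 most alike miRNAs and any detected member of a list. The fit was tested on simulated data of 270 miRNAs, where 59.5% of log2 changes of 0.5 and 91.8% of those of 1 were recovered. The simulated noise was independent, without array effects or an outlying array. No change below 0.5 was planted, while the largest difference of a member was 0.24, so the recovery does not cover differences of that size. Alternatives covered scaling, background, probes, filters, variance model, probe composition, pairing and each array. The number of arrays limits the precision.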

Additional observations from a re-analysis of the deposited data

Results flagged for a closer look

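Among 30 sets of 4 arrays (5 members and 10 pairs of members in each breed), 1 had an array far from the other 3. The within-array difference of miR-200b minus miR-429 was 3.75 in the second Holstein-Friesian replicate and between 4.28 and 4.34 in the rest of that breed, a gap of 0.893 of the whole range where 0.829 is the limit. Chance flags about 5% of such sets. In the Limousin arrays the same difference was 4.32 ± 0.06 (SD, n = 4).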

How the results depend on the processing

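Values are log2 differences of Limousin minus Holstein-Friesian. Without scaling they were 0.82 for miR-200b, 1.01 for miR-200a, 0.67 for miR-429, 0.68 for miR-200c and 1.098 for miR-141. There 5 members were called higher, beside 173 higher (64.1%) and 2 lower over all 270 tested miRNAs. With spike-in scaling they were 0.76, 0.95, 0.60, 0.62 and 1.04 in the same order, with 5 members called and 173 higher (64.1%) and 3 lower. With the 75th percentile over all probes they were 0.29, 0.49, 0.14, 0.16 and 0.57, with 2 members called and 104 higher (38.5%) and 30 lower. Quantile normalization gave 0.23 for miR-200b, 0.031 for miR-429 and -0.25 for miR-200c, the 1 member called lower, with 43 lower in all (15.9%). Cyclic loess, the second probe and array weights each called 1 member lower, miR-200c, at -0.32, -0.30 and -0.23. Over all tested miRNAs 21.9%, 21.9% and 36.3% were called lower in these settings. The deposited table gave 0.25 for miR-200b, 0.068 for miR-429 and 0.077 for miR-200c, with 81 higher and 28 lower. The sign of miR-200b also turned with median scaling (0.046), normexp (0.011; 146 lower in all), no background correction (0.0040; 143 lower) and array weights (0.0020). After the GC and length correction miR-200b was at 0.062 and miR-200c at 0.15, with 32 lower in all, or 22 with the replicate block too. The scalings by a constant differ by construction in the constant they take off each array. The cause of the other changes was not tested.

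When each array was left out in turn, miR-200b ran from -0.071 to 0.019, miR-200a from 0.046 to 0.32, miR-429 from -0.26 to -0.067, miR-200c from -0.23 to -0.14 and miR-141 from 0.099 to 0.39. The count of members called higher ran from 0 to 2, that of all miRNAs higher from 24 to 57 and lower from 47 to 95. The 24 higher calls were reached without Limousin replicate 1 and without Limousin replicate 4. Without Holstein-Friesian replicate 2, where 2 members were called higher, there were 57 of 276 (20.7%). The 47 lower calls were reached without Limousin replicate 1, and 48 without Holstein-Friesian replicate 4. The shift of miR-429 against miR-200c ran from -0.11 to 0.16, and it was 0.028 with the mean of all probes. No other pair turned sign in the settings run on pairs: the mean of all probes, normexp, no background correction and each array left out. Quantile normalization, cyclic loess and the GC and length correction were not run on these shifts. There the values of single members put some pairs in the other order. After the GC and length correction miR-200b and miR-200c were at 0.062 and 0.15, against -0.04 and -0.17 in the main setting. Under quantile normalization miR-200b and miR-200a were at 0.23 and 0.14, against -0.04 and 0.16. Chosen after seeing the data were the distances between members after the GC and length correction and the distances and SD ratios without Holstein-Friesian replicate 2.

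The replicate block changed no call among the members (miR-141 at 0.24, adjusted p = 0.289) and gave 25 higher and 59 lower over all. The numbers 1 to 4 were not used as pairs, because deviations of same-numbered arrays correlated between -0.45 and 0.32. Signals were well above background for all members, so detection limits none of their values.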
